A study of Mus musculus with 22 samples.

Results

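Hypothalamic RNA of mice that had carried Lewis lung carcinoma for 10 days was compared with that of tumour-free mice. The comparison takes 9 of the 22 arrays of the series, 5 labelled tumour bearing day 10 and 4 labelled control, chosen by their titles, and 18820 genes. All were male C57BL/6 mice, 6 weeks old at the start, housed singly on a purified diet taken freely. The tumour group received 500000 Lewis lung carcinoma cells, a transplantable mouse tumour line, in the muscle of a hind leg under anaesthesia. The labels do not say whether the controls received a sham injection. The controls were killed on day 14, so tumour and a 4-day gap in age and housing cannot be told apart in any of these values. Each array holds 1 mouse. A further 7 mice of tumour day 14 and 6 of tumour day 17 entered the fit and are compared with day 10 at the end. Values are log2 levels as the authors deposited them, a change is the day 10 mean minus the control mean on that scale, and its error is the standard error (SE) of the fit.

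The hypothalamus senses peripheral inflammation largely through its blood vessels and the cells around them. Interleukin 1 and related cytokines act on endothelial and perivascular cells, which then make prostaglandin E2 through the inducible cyclooxygenase, and the prostaglandin acts on neurons that govern fever, appetite and the release of adrenal glucocorticoid. Interferons act on most cell types, and through STAT transcription factors they switch on a shared set of antiviral, chemokine and antigen presentation genes. In bulk tissue of this kind, more cells of a type and more RNA per cell cannot be told apart.

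Across 18820 genes, 20 were called changed on day 10 (0.106%, limma, Benjamini-Hochberg adjusted p below 0.05), of which 19 rose (0.101%) and 1 fell (0.00531%). At an unadjusted p below 0.05, 992 genes were higher (5.27%) and 1022 were lower (5.43%), close to even numbers, and the median change of all genes was 0.00. Among the 19 genes that rose were a cytokine receptor pair (Il1r1, Osmr), chemokines (Cxcl9, Cxcl10), the inducible cyclooxygenase (Ptgs2), interferon-induced genes (Oasl2, Oas2, Ifitm3, Ifi27l2a, Ifi207), antigen presentation genes (H2-K1, Psmb8) and the acute-phase gene Lcn2. The gene that fell was Kcns2, a potassium channel subunit. In 18 of the 20 genes the 5 tumour-bearing mice and the 4 controls did not overlap, where over all genes 416 (2.21%) stood wholly above and 422 (2.24%) wholly below the controls. The 20 were called on these same arrays, so their separation is largely set by that choice and adds no support. The mice were uneven. Day 10 mouse 3 was the lowest of its group in 10 of the 19 rises and mouse 4 the highest in 10, and control 4 was the highest control in 15.

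**Figure D1:**
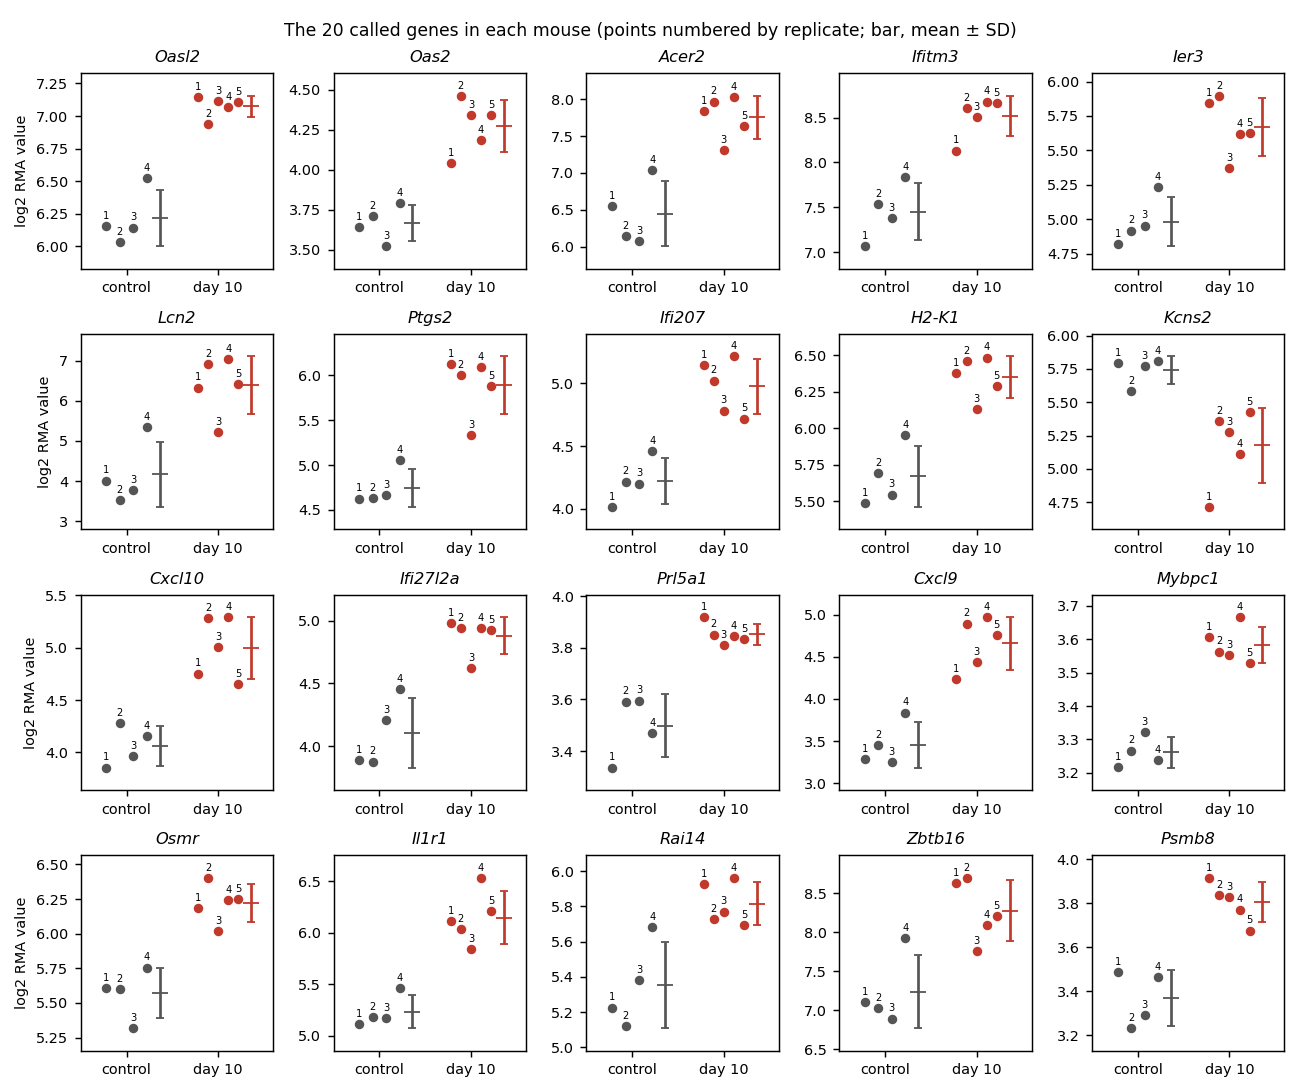
Log2 level (vertical axis) of each of the 20 genes called on day 10, with 1 point per mouse numbered by replicate, 4 controls in grey and 5 mice of day 10 in red, and bars for the group mean ± SD. The groups overlap in Lcn2 and Zbtb16 and are apart in the other 18 genes, and control 4 is the control nearest to the tumour-bearing mice in most rises.

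The number of calls depended on single mice. Leaving out control 1, 2 or 3 left 0 calls (with 1691, 1590 and 1681 genes at an unadjusted p below 0.05), and leaving out day 10 mouse 1, 2, 4 or 5 left 4, 1, 2 and 8, whereas 24 were called without control 4 and 17 without day 10 mouse 3. Without day 17 mouse 4, which enters only through the spread, 11 were called. The signs of all 20 changes held in each of the 22 fits with 1 array left out. These fits share most arrays with the one that chose the genes. Oasl2 kept its call in 19 of the 22 fits and Oas2 in 18, and Rai14 and Psmb8 kept theirs in 6.

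**Figure D2:**
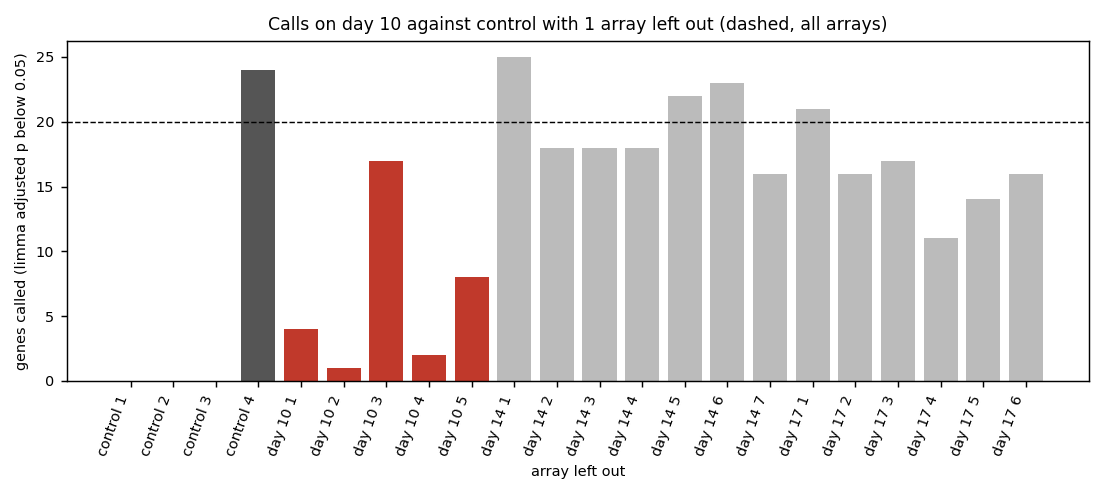
Number of genes called on day 10 against control (vertical axis) when the array named on the horizontal axis is left out, with the controls in dark grey, day 10 in red and the later tumour days in light grey, and a dashed line at the 20 calls of all arrays. The count falls to 0 without control 1, 2 or 3 and stays between 11 and 25 without any 1 mouse of days 14 or 17.

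A pair of receptor genes for inflammatory cytokines rose, and Il1b, Tnf and Il6 had low levels and no call. Il1r1, the signalling receptor for interleukin 1, stood at 5.11, 5.18, 5.17 and 5.46 in the controls and at 6.11, 6.03, 5.84, 6.53 and 6.21 on day 10. Every tumour-bearing mouse was above every control, and the rise was 0.91 ± 0.18 (adjusted p = 0.0410). Osmr, which pairs with gp130 to bind oncostatin M, stood at 5.61, 5.60, 5.32 and 5.75 in the controls and at 6.19, 6.40, 6.02, 6.25 and 6.25 on day 10. It too was apart in the 2 groups, and rose by 0.65 ± 0.13 (adjusted p = 0.0410). Both calls held in 10 of the 22 fits with 1 array left out. Of 23 measured genes of interleukin 1, tumour necrosis factor and their receptors, 1 rose and 0 fell, and the median change was 0.04. Il1b differed by 0.18 ± 0.09, Tnf by 0.30 ± 0.12 and Il6 by 0.14 ± 0.08, with levels in both groups under the background measure, which is the level that 95% of the probe sets for olfactory and vomeronasal receptors stay under (3.87). None of these 3 passed the test.

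In the gp130 and STAT3 pathway, 1 of 23 measured genes rose, 0 fell, and 6 (26.1%) were higher at an unadjusted p below 0.05, against 5.27% of all genes. Next to Osmr stood Bcl3, an atypical IkappaB protein, with a difference of 0.52 ± 0.11 that missed the threshold (adjusted p = 0.0693). Il6ra, the interleukin 6 receptor, differed by 0.31 ± 0.11, and Socs3, the feedback inhibitor of the pathway, by 0.17 ± 0.09. Of 25 NF-kappaB pathway genes, 1 rose and 0 fell. That gene was Ier3, a short-lived stress-response gene, at 4.82, 4.92, 4.95 and 5.23 in the controls and at 5.84, 5.90, 5.37, 5.62 and 5.62 on day 10. The groups did not overlap, and the rise was 0.69 ± 0.12 (adjusted p = 0.0280). Icam1, the endothelial adhesion molecule, differed by 0.41 ± 0.13 without a call.

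The inducible cyclooxygenase gene rose. Ptgs2 stood at 4.63, 4.63, 4.66 and 5.05 in the controls and at 6.13, 6.01, 5.34, 6.09 and 5.88 on day 10. Control 4 and day 10 mouse 3 were the nearest to each other across the gap, and the rise was 1.15 ± 0.20 (adjusted p = 0.0280). Ptges, the inducible prostaglandin E synthase that takes up the product of Ptgs2, differed by 0.06 ± 0.09. Of 21 measured genes of prostaglandin synthesis, transport and receptors, 1 rose, 0 fell, and the median change was 0.05. The difference between the 2 genes' changes was not tested.

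The chemokines that rose bind CXCR3, the receptor of activated T cells. Cxcl9 stood at 3.28, 3.45, 3.25 and 3.84 in the controls, under the background measure, and at 4.24, 4.90, 4.43, 4.97 and 4.76 on day 10. Cxcl10 stood at 3.86, 4.28, 3.96 and 4.15 in the controls and at 4.75, 5.28, 5.01, 5.29 and 4.65 on day 10. In both genes the groups were apart, and the rises were 1.21 ± 0.23 (adjusted p = 0.0340) and 0.93 ± 0.17 (adjusted p = 0.0325). Of 46 measured chemokine and chemokine receptor genes, these 2 rose and 0 fell. At an unadjusted p below 0.05, 7 (15.2%) were higher, against 5.27% of all genes. Ccl12 differed by 0.30 ± 0.09, Ccl5 by 0.37 ± 0.14 and Cxcl16 by 0.41 ± 0.16, none of them called.

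The promoters of these neighbouring chemokine genes are shown with those of the 2 other called genes that hold a match to the core of the interferon-stimulated response element (ISRE); they set genes that rose together side by side. The ISRE core was searched as GAAA, any 2 bases and GAAA, and the kappaB site as GGGA, any 2 bases and TTCC, on both strands, in the bases around each start site listed by RefSeq for GRCm38.p6, from 250 before to 50 after. A promoter was matched for 16 of the 20 called genes. Capitals mark matches of either motif, and each sequence is on the strand of its gene, here the minus strand for all 4. The regions are chr5:92348840-92349139 for Cxcl10, chr5:92328030-92328329 for Cxcl9, chr1:173741760-173742059 for Ifi207 and chr7:141010695-141010994 for Ifitm3.
Cxcl10: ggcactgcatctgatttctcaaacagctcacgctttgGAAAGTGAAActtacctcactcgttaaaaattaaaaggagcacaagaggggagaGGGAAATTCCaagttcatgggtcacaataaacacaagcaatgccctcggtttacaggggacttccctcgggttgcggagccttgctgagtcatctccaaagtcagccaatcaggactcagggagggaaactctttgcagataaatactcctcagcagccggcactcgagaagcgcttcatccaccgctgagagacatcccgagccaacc
Cxcl9: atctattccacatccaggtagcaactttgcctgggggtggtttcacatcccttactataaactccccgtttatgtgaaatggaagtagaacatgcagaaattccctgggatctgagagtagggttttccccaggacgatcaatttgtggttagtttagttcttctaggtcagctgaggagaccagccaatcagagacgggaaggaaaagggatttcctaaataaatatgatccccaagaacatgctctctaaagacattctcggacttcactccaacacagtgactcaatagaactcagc
Ifi207: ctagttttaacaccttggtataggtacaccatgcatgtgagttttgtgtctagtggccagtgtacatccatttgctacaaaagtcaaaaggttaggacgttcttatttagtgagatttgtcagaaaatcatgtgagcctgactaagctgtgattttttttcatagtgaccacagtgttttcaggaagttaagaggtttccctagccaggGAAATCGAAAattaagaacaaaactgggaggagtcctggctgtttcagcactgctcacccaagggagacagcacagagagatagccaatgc
Ifitm3: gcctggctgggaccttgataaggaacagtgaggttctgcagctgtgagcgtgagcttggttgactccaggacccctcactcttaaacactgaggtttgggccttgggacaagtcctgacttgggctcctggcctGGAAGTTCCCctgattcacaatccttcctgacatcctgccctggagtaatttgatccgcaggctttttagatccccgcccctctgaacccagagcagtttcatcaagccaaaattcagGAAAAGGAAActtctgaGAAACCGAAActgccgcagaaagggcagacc
Cxcl10 holds 1 ISRE core and 1 kappaB match, Ifi207 holds 1 ISRE core, Ifitm3 holds 2 ISRE cores, which lie at and just past the start site, and 1 kappaB match, and these letters were not in the Cxcl9 window. An ISRE core is in 3.44% of 32851 promoters of this length and a kappaB match in 1.47%. A match describes letters and is no evidence of binding.

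Interferon-stimulated genes made up the broadest group. Of 59 measured members, 4 rose, 0 fell, 39 (66.1%) were higher and 0 lower at an unadjusted p below 0.05, against 5.27% higher and 5.43% lower among all genes. The median change was 0.33, with members from −0.21 to 1.06. In 23 (39.0%) every tumour-bearing mouse was above every control, against 2.21% of all genes. Averaged over the list, the controls stood at 5.00, 4.93, 4.89 and 5.08 and day 10 at 5.32, 5.34, 5.26, 5.46 and 5.27. These list means did not overlap. The list was drawn up with earlier results of these data known, so its direction is no independent evidence.

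Oasl2, of the oligoadenylate synthase family that senses viral RNA, had the smallest p of all genes. It stood at 6.16, 6.04, 6.14 and 6.53 in the controls and at 7.14, 6.94, 7.12, 7.07 and 7.11 on day 10. The tumour-bearing mice lay close together, and the rise was 0.86 ± 0.12 (adjusted p = 0.00629). Oas2, of the same family, stood at 3.64, 3.71, 3.52 and 3.79 in the controls, each under the background measure, and at 4.04, 4.46, 4.34, 4.19 and 4.34 on day 10, a rise of 0.61 ± 0.09 (adjusted p = 0.0161). Ifitm3, a membrane protein that blocks virus entry, stood at 7.07, 7.53, 7.38 and 7.83 in the controls and at 8.13, 8.61, 8.51, 8.68 and 8.66 on day 10. Both genes were apart between groups, and Ifitm3 rose by 1.06 ± 0.18 (adjusted p = 0.0280). Ifi27l2a rose by 0.78 ± 0.15 (adjusted p = 0.0340), with day 10 mouse 3 at 4.62 below its group. Ifi207, of the interferon-inducible HIN family and not on the list, stood at 4.02, 4.22, 4.20 and 4.46 in the controls and at 5.14, 5.02, 4.78, 5.21 and 4.72 on day 10, a rise of 0.75 ± 0.13 (adjusted p = 0.0280). Among members without a call, Gbp2, an interferon-inducible GTPase, differed by 0.86 ± 0.18 (adjusted p = 0.0880), Ifit3 by 0.64 ± 0.16 and Ifit1 by 0.76 ± 0.20. Of 12 interferon and interferon receptor genes 0 were called by limma and 2 had an unadjusted p below 0.05, and Ifng, the type II interferon, differed by 0.26 ± 0.08, with both means under the background measure.

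A pair of genes of MHC class I antigen presentation rose. H2-K1, a classical class I heavy chain, stood at 5.49, 5.69, 5.55 and 5.95 in the controls and at 6.38, 6.46, 6.13, 6.48 and 6.29 on day 10. The groups were apart and the rise was 0.68 ± 0.12 (adjusted p = 0.0280). Class I genes are near-identical copies, so probes may be shared between them. Psmb8, an immunoproteasome subunit, rose by 0.44 ± 0.09 (adjusted p = 0.0410), from 3.37 ± 0.13 (SD, n = 4) to 3.81 ± 0.09 (SD, n = 5), with both means under the background measure. Of 19 members measured, these 2 rose and 0 fell. At an unadjusted p below 0.05, 8 (42.1%) were higher, against 5.27% of all genes. Among the other members were Tap1, the peptide transporter, with a difference of 0.45 ± 0.11, and H2-T23 with 0.36 ± 0.08.

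**Figure D3:**
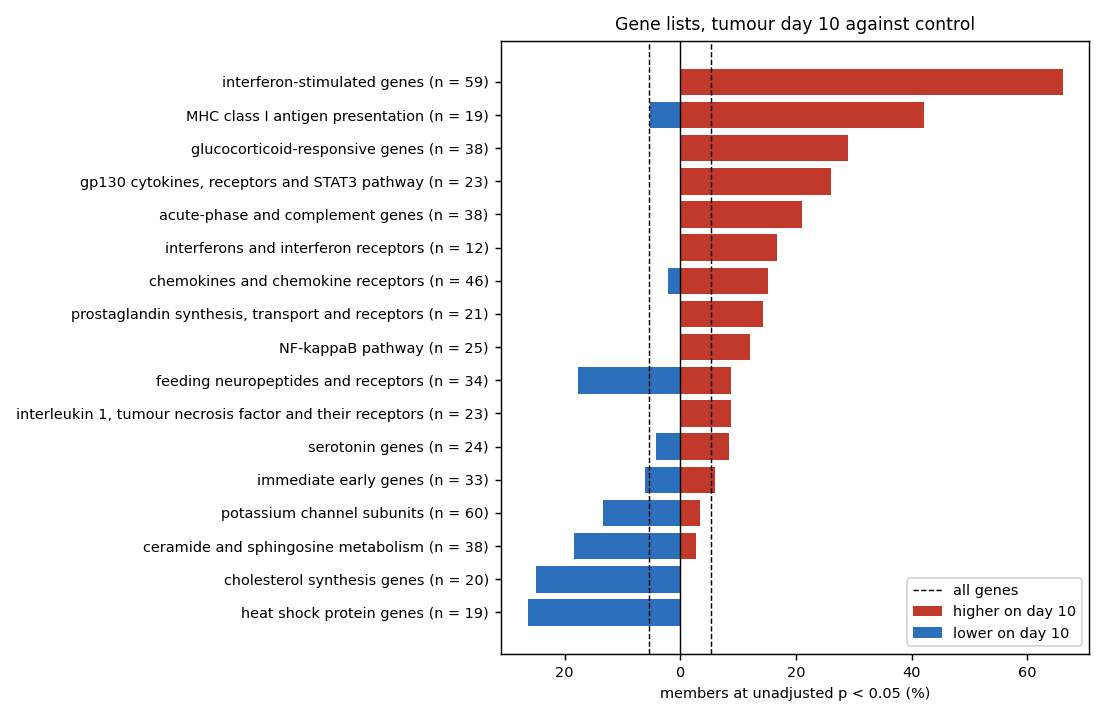
Share of the measured members of each response list (percent, horizontal axis) with an unadjusted limma p below 0.05 on day 10 against control, higher to the right in red and lower to the left in blue, with dashed lines at the shares of all genes (5.27% and 5.43%). Interferon-stimulated genes reach 66.1% and class I genes 42.1% on the higher side, and heat shock (26.3%) and cholesterol synthesis genes (25.0%) lie on the lower side alone.

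Lcn2, whose product lipocalin 2 binds bacterial iron carriers and is released in inflammation, had the largest change among called genes. It stood at 4.02, 3.53, 3.78 and 5.35 in the controls and at 6.33, 6.91, 5.22, 7.05 and 6.41 on day 10. Day 10 mouse 3 was below control 4, so the groups overlapped, and the rise was 2.21 ± 0.39 (adjusted p = 0.0280), or 4.63-fold with a 95% interval of 2.63 to 8.16. Of 38 acute-phase and complement genes, 1 rose, 0 fell, the unadjusted p was below 0.05 in 8 (21.1%), each of them higher, and the mean was higher in 36, against 50.3% of all genes. The list means were 4.70, 4.72, 4.69 and 4.78 in the controls and 4.99, 5.00, 4.81, 5.04 and 4.98 on day 10, apart by a narrow margin at mouse 3. Lrg1, an acute-phase glycoprotein, differed by 0.96 ± 0.25 and Ch25h, an interferon-induced sterol hydroxylase, by 0.84 ± 0.19, without a call.

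Genes that respond to glucocorticoid formed a further group, with more higher than lower members. Zbtb16, a zinc finger repressor and a target of the glucocorticoid receptor, stood at 7.11, 7.02, 6.89 and 7.93 in the controls and at 8.63, 8.70, 7.76, 8.09 and 8.20 on day 10. Mouse 3 was again below control 4, and the rise was 1.04 ± 0.20 (adjusted p = 0.0410). Of 38 measured members, 2 rose (Zbtb16 and Lcn2, which is also on the acute-phase list) and 0 fell. At an unadjusted p below 0.05, 11 (28.9%) were higher, against 5.27% of all genes. Fkbp5, a co-chaperone of the receptor that it induces, differed by 0.57 ± 0.12 (adjusted p = 0.0945) and Tgm2, transglutaminase 2, by 0.64 ± 0.14 (adjusted p = 0.106). List means were 6.84, 6.80, 6.78 and 7.00 in the controls and 7.19, 7.17, 6.92, 7.17 and 7.02 on day 10. Only mouse 3 was below the highest control.

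Acer2, which encodes an alkaline ceramidase of the Golgi, stood at 6.55, 6.14, 6.07 and 7.04 in the controls and at 7.84, 7.97, 7.31, 8.03 and 7.64 on day 10. The groups were apart, and the rise was 1.31 ± 0.22 (adjusted p = 0.0276), or 2.47-fold with a 95% interval of 1.81 to 3.38. Of 38 ceramide and sphingosine genes, 1 rose, 0 fell, and at an unadjusted p below 0.05 Acer2 was the only member higher and 7 (18.4%) were lower, among them Smpd3, a neutral sphingomyelinase, at −0.21 ± 0.06 and Ugcg, glucosylceramide synthase, at −0.25 ± 0.08. Rai14, an actin-associated protein, rose by 0.46 ± 0.09 (adjusted p = 0.0410). Prl5a1, of the prolactin family, and Mybpc1, a muscle myosin-binding protein, were called at 0.35 ± 0.07 and 0.32 ± 0.06 (adjusted p = 0.0340), with levels in both groups under the background measure. The call for Prl5a1 held in 11 and that for Mybpc1 in 12 of the 22 fits with 1 array left out.

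Kcns2, a silent subunit that modifies Kv2 potassium channels, stood at 5.79, 5.59, 5.77 and 5.81 in the controls and at 4.71, 5.36, 5.28, 5.11 and 5.42 on day 10. All tumour-bearing mice were below all controls, with mouse 1 the lowest, and the fall was 0.56 ± 0.10 on the log2 scale (adjusted p = 0.0280). Of 60 measured potassium channel subunits, 1 fell and 0 rose. At an unadjusted p below 0.05, 8 (13.3%) were lower and 2 higher, against 5.43% lower among all genes. Kcnip3, a channel-interacting protein, differed by −0.22 ± 0.08 and Kcnc2, a fast Kv3 subunit, by −0.37 ± 0.14.

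Of the genes lower on day 10 without a call, Nts, the peptide neurotensin, stood at 7.51, 7.37, 7.29 and 7.36 in the controls and at 6.64, 6.66, 6.60, 6.69 and 7.20 on day 10. The first 4 tumour-bearing mice lay close together and mouse 5 near the controls, and the difference was −0.63 ± 0.14 (adjusted p = 0.0914). Nr4a1, an immediate early nuclear receptor, differed by −0.64 ± 0.17 (adjusted p = 0.174), Sntn, a protein of ciliary tips, by −0.57 ± 0.14 and Sostdc1, an antagonist of BMP and Wnt, by −0.45 ± 0.11. Of 33 immediate early genes 0 were called by limma, with 2 higher and 2 lower at an unadjusted p below 0.05. Cks2, a cyclin-dependent kinase subunit, differed by −0.43 ± 0.09 (adjusted p = 0.0807).

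Heat shock and cholesterol synthesis genes had no call, and their members with a small p were lower. Of 19 heat shock protein genes, 0 were called, and 5 (26.3%) were lower and 0 higher at an unadjusted p below 0.05, with a median of −0.10. Hspe1, the mitochondrial co-chaperonin, differed by −0.21 ± 0.06. Of 20 cholesterol synthesis genes, 0 were called, 5 (25.0%) were lower and 0 higher, with a median of −0.11, and Dhcr7, of the last step, differed by −0.28 ± 0.07. On day 14 the 2 medians against the same controls were −0.19 and −0.20, and on day 17 −0.26 and −0.25.

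Of 34 measured genes of feeding neuropeptides and their receptors 0 were called by limma, with 3 higher and 6 lower (17.6%) at an unadjusted p below 0.05. Pomc, the precursor of an appetite-lowering peptide, differed by −0.65 ± 0.22 (adjusted p = 0.295) and Npy, which raises appetite, by 0.54 ± 0.25 (adjusted p = 0.461). Ghsr, the ghrelin receptor, differed by 0.33 ± 0.08 (adjusted p = 0.172), and Hcrt, orexin, by −0.43 ± 0.22 (adjusted p = 0.505). In each of these 4 the groups overlapped. Gal, the peptide galanin, differed by −0.39 ± 0.13 (adjusted p = 0.277) and Crh, corticotropin-releasing hormone, by −0.36 ± 0.11 (adjusted p = 0.266). The groups overlapped in both, and both means of Crh were under the background measure. Serotonin was named in the title of the series, and of 24 serotonin genes 0 were called, with 2 higher and 1 lower at an unadjusted p below 0.05. Htr7, a serotonin receptor, differed by −0.27 ± 0.09 (adjusted p = 0.266). Tph2 and Slc6a4, which mark serotonin neurons and whose cell bodies lie outside the hypothalamus, were under the background measure and differed by 0.13 ± 0.10 and 0.13 ± 0.11.

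Markers gave a check of what the samples held. Of 19 hypothalamic neuron markers, 18 were above the background measure. All 20 thalamus markers and all 11 measured striatum markers were above it too, so this does not tell the regions apart. The hypothalamic neuron markers had a median change of −0.07. At an unadjusted p below 0.05, 4 of them (21.1%) were lower and 1 higher, against 5.43% lower among all genes. Thalamus markers differed between the groups. Their mean was 7.31, 6.78, 7.70 and 6.68 in the controls and 6.63, 6.63, 6.55, 6.65 and 7.03 on day 10, with controls 1 and 3 the highest, and 0 of 20 members had a higher mean on day 10 (8 lower at an unadjusted p below 0.05, median −0.39). With that mean as a covariate, or without the 4 arrays of the series highest in it (controls 1 and 3 among them), 0 genes were called (with 1934 and then 1452 genes at an unadjusted p below 0.05). The 20 genes kept their sign in both, with a median absolute change of 0.74 and 0.68 against 0.76. They were chosen on the same arrays, so their kept signs are partly set by that choice. Among lower values without a call, that of Ptpn4, a tyrosine phosphatase, went from −0.45 to −0.21 under the covariate.

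Meningeal fibroblast markers were higher in mean on day 10, but the groups overlapped. Their mean was 5.86, 6.08, 6.09 and 6.52 in the controls and 6.17, 6.79, 5.89, 7.12 and 6.79 on day 10. All 16 members were higher in mean, with a median change of 0.45. At an unadjusted p below 0.05, 1 member (6.25%) was higher, against 5.27% of all genes. Control 4 was the highest control and mouse 3 the lowest of day 10, as in many of the called genes. With that mean as a covariate 8 genes were called, 7 of them among the 20, and the median absolute change of the 20 was 0.67. Brain endothelium markers stood at 6.84, 6.76, 6.78 and 6.74 in the controls and at 6.89, 6.96, 6.76, 7.06 and 6.82 on day 10. These means overlapped, with a median change of 0.08. Pericyte and smooth muscle markers, the mural cells of the same vessels, averaged 5.83, 5.83, 5.81 and 5.81 in the controls and 5.90, 6.02, 5.88, 6.20 and 5.93 on day 10. These means were apart, as were those of the interferon-stimulated genes, with a median change of 0.17 and 10 of 13 members higher in mean, 1 of them at an unadjusted p below 0.05 and 0 called. The part of mural cells in the called genes was not tested. Vwf, the endothelial clotting factor, differed by 1.09 ± 0.27 (adjusted p = 0.160), with controls at 5.75, 5.40, 5.58 and 6.00 and day 10 at 6.71, 7.07, 6.16, 7.28 and 6.64.

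Markers of blood were given in the same way. The red cell markers averaged 4.63, 4.60, 4.62 and 5.05 in the controls and 5.02, 4.93, 5.11, 5.56 and 5.02 on day 10, and 3 of 8 were higher at an unadjusted p below 0.05, led by Alas2, of haem synthesis, at 1.04 ± 0.35. Of 20 leukocyte markers 6 were above the background measure, with means from 3.51 to 3.58 in the controls and from 3.54 to 3.79 on day 10. Microglia markers had a median change of 0.07, with 2 of 21 higher and 1 lower at an unadjusted p below 0.05. No member of these 3 lists was called. The part of blood and leukocytes in the called genes was not tested.

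**Figure D4:**
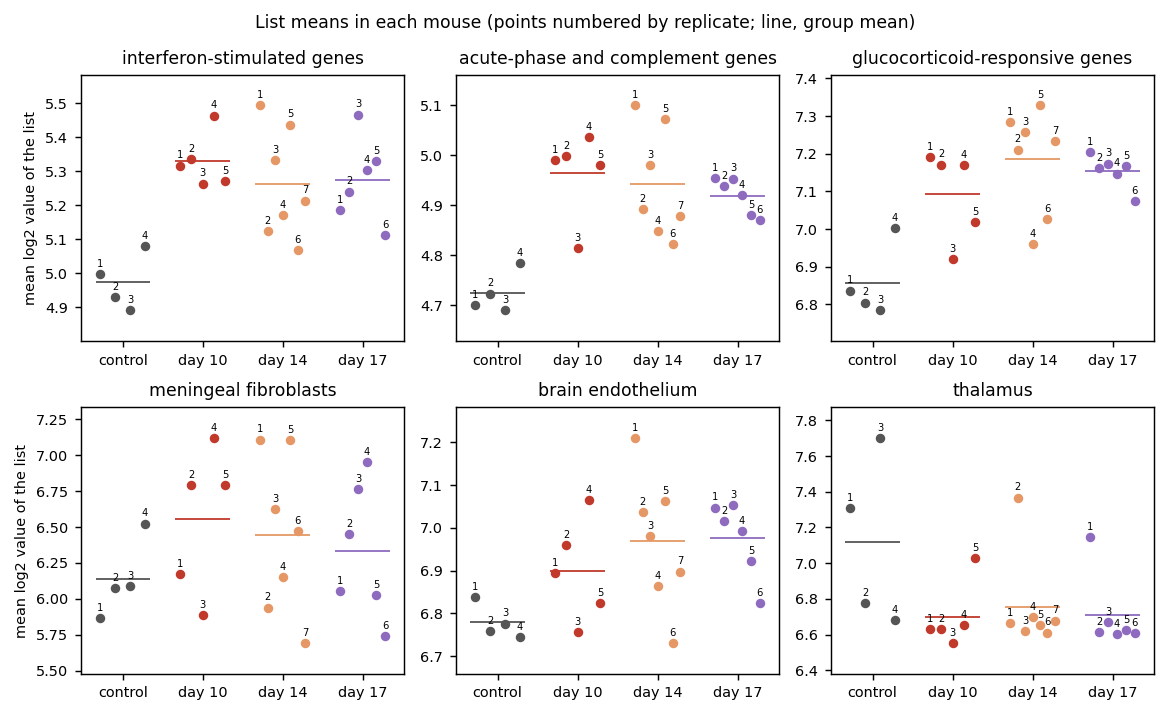
Mean log2 level of the members of 6 lists (vertical axis) in each mouse, with 1 numbered point per mouse and a line at the group mean, for controls, day 10, day 14 and day 17. Interferon-stimulated genes and acute-phase genes separate day 10 from control, and meningeal fibroblast markers follow mouse 3 and control 4. Thalamus markers are highest in control 3 (7.70), day 14 mouse 2 (7.37), control 1 (7.31) and day 17 mouse 1 (7.15).

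Samples deposited together could share a batch, which no label gives. Of the first 9 samples, control 1 and day 10 mice 1 and 2 belong here. Within the last 13 samples 0 genes were called (1806 at an unadjusted p below 0.05). All 20 genes kept their sign there and had an unadjusted p below 0.05, with a median absolute change of 0.63 against 0.76. The 20 were chosen on arrays that include these 13, so kept signs and small p-values are partly set by that choice. Within the first 9 samples, which hold 1 control, 1 gene was called, Acer2.

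The later tumour days were set against day 10 directly, which shares no control. From day 10 to day 14, 1 gene of 18820 was called (0.00531%), and from day 10 to day 17, 0 were called by limma (0%, with 1562 at an unadjusted p below 0.05). Without day 17 mouse 6 the latter count was 12, and without day 10 mouse 4 it was 2. The called gene between days 10 and 14 was Nr4a3, an immediate early nuclear receptor, which fell by 0.67 ± 0.09 from day 10 to day 14 (adjusted p = 0.00369) and differed by −0.06 ± 0.10 between day 10 and control. Among the 19 genes that rose on day 10, 15 had a lower mean on day 14 and 18 on day 17, with no call. These genes were chosen on the day 10 arrays that both differences share, so a lower value later is partly set by that choice.

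Psmb8 differed most by p, by −0.35 ± 0.08 from day 10 to day 14, then Ifi207 by −0.48 ± 0.12 and Oas2 by −0.34 ± 0.08. Ptgs2 differed by −0.64 ± 0.18 from day 10 to day 14 and by −0.45 ± 0.18 to day 17. Cxcl9 differed by −0.43 ± 0.20 and −0.55 ± 0.21. Lcn2 differed by 0.06 ± 0.34 on day 14 and −0.40 ± 0.36 on day 17, and Acer2 by 0.15 ± 0.19 and 0.29 ± 0.20. Over the 19 genes the median difference from day 10 was −0.22 on day 14 and −0.25 on day 17. Among these 19 genes, limma p-values adjusted over all genes were no lower than 0.516 for day 14 and 0.290 for day 17. Against the same controls, 6 of the 20 were also called on day 14 and 9 on day 17. The 20 were chosen with these controls, so their control values carry into both counts. The shares of all genes called in those comparisons are not given here, so these counts are no measure of persistence.

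**Figure D5:**
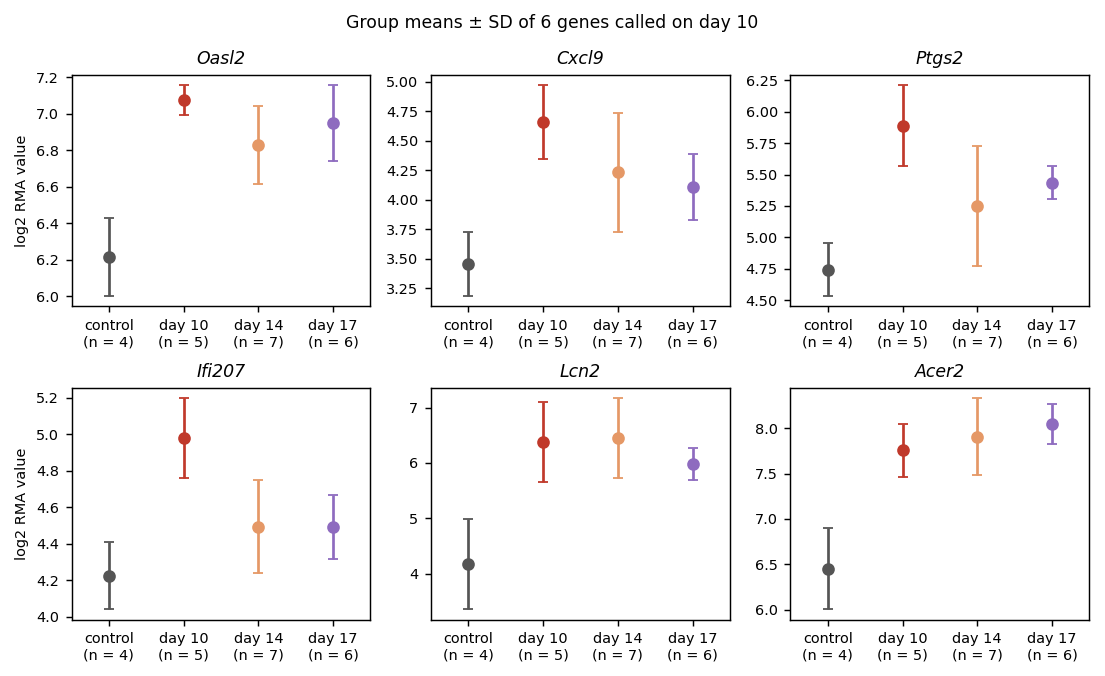
Group mean ± SD of the log2 level (vertical axis) for 6 of the genes called on day 10, in controls (n = 4), day 10 (n = 5), day 14 (n = 7) and day 17 (n = 6). Cxcl9, Ptgs2 and Ifi207 have their highest mean on day 10, and Acer2 has its highest on day 17.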

How the data were processed

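Hypothalamic RNA of 22 mice was measured on 1 array each. The authors deposited log2 values from RMA (submitters' processing notes), a method that subtracts background, normalizes between arrays and summarizes probes. RNA with an integrity number above 8 was used, per the labels' protocols. For its version, build and annotation, nothing is given in the sources used here. Probe sets naming 1 gene (21218 of 35556) gave 18820 genes, each read from its brightest probe set, by the mean of 22 arrays. Symbols come from the platform annotation, and 21185 of these probe sets matched RefSeq.

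Array medians ran from 5.27 to 5.34 and correlations between arrays from 0.980 to 0.995, and no 2 arrays held the same values (0 pairs). Precision is limited by the number of arrays. No filter on low values was set, and 13790 genes had a mean above the background measure, taken from 1182 receptor probe sets.

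limma 3.58.1 in R 4.3.3 fitted 4 group means to 22 arrays (18 residual degrees of freedom), with eBayes without a trend, two-sided tests and Benjamini-Hochberg adjustment over all genes. On data simulated for day 10 against control, 84% of genes changed by 0.5 and 99% of those changed by 1 were recovered, with 5.18% of calls false. The simulated noise was independent between genes, without differences between mice that many genes share, and more genes were changed than were called here. These rates need not hold for the real data, where Alas2 differed by 1.04 without a call. Gene lists (33, of which 17 are responses and 16 are markers) are described by counts and medians, without a set test. The comparison, members and lists were chosen with earlier results of these data known. Genes to name were the called genes and the 12 largest rises and falls among uncalled genes at an unadjusted p below 0.001. They also included the smallest p of each list (4 per response list, 2 per marker list) and 12 genes of feeding, serotonin and cytokine signalling. A few other list members were added after their values were seen, and not every gene of this set is mentioned in the text. Alternatives changed the samples, variance moderation, weights, scaling, threshold, probe set rule, low-value filter, replicate block, order of deposit and marker covariates, and left out each array. Those with the first 9 samples alone and with meningeal markers were chosen after seeing the data.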

Additional observations from a re-analysis of the deposited data

Results flagged for a closer look

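Among 126 named genes in the controls and in day 10, 18 of 252 groups had 1 mouse far from the others. How many such groups chance would give was not tested, and most of these genes were chosen on the same arrays. In the controls, mouse 4 was high for Ptgs2 (5.05), Ifit3 (7.51), Vim (9.25, an intermediate filament) and Alas2 (6.41). Control 1 was low for Bcl3 (4.08) and high for Lamp5 (6.91), and control 2 was low for Kcns2 (5.59) and Tgm2 (5.46). On day 10, mouse 3 was low for Ifi27l2a (4.62), Icam1 (4.77) and Hcrt (9.17). Mouse 5 was high for Nts (7.20) and Ifng (4.09) and low for Ankrd37 (5.83). Mouse 1 was high for Ctss (7.62, cathepsin S) and Il1b (3.62), and mouse 4 was high for Slc4a1 (6.51, the red cell anion exchanger) and low for Atp1b2 (10.6, a sodium pump subunit).

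Nr4a3 differed between tumour days, by −0.67 on day 14 against day 10, as tested above.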

How the results depend on the processing

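The 20 genes called on day 10 kept their sign under each setting tried, except that the low-value filter left 17 to test. These settings use arrays on which the genes were chosen, so kept signs are partly set by that choice. The number of calls lay between 17 and 24 with only the groups compared, with a trend or robust variance, with either scaling, with the low-value filter, with other probe set rules and with a term for the order of deposit. It was 31 at an adjusted p below 0.10 and 76 with array weights. It was 8 with the meningeal marker covariate, 1 in the first 9 samples, and 0 in the last 13 samples, with the thalamus marker covariate and without the 4 arrays highest in it. With 1 array left out it ran from 0 to 25. A similar count did not always mean the same genes. With only the groups compared, 18 genes were called, 12 of the 20 among them, and 0 falls were called. With a trend, 17 of the 20 were among the 24 called. Day 14 against day 10 gave 0 calls with only the groups compared (1184 genes at an unadjusted p below 0.05) and in the last 13 samples (1222), and 1 otherwise. Day 17 against day 10 gave 1 call at an adjusted p below 0.10, 2 with array weights, and 0 to 12 with 1 array left out, 12 being without day 17 mouse 6. The cause of these shifts was not tested. With the replicate number as a block, 24 genes were called on day 10 (16 of the 20 among them), 1 between days 14 and 10, and 19 between days 17 and 10. Samples of one number in the controls and day 10 correlated in their deviations by −0.08 to 0.20, and the 28 same-numbered pairs of all groups by −0.19 to 0.35, so the numbers were not taken to pair the mice. Of the 20 genes, 3 lay under the background measure in both groups.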

Other observations

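Among genes without a call, the differences above 0.5 on the log2 scale included Id1, an inhibitor of helix-loop-helix factors, at 0.55 ± 0.12, and Ankrd37, an ankyrin repeat gene induced by low oxygen, at 0.54 ± 0.12. Cybb, the catalytic subunit of the phagocyte oxidase, differed by 0.71 ± 0.18 and Scgb3a1, a secretoglobin, by 0.69 ± 0.17. In these 4 genes every tumour-bearing mouse was above every control, and adjusted p-values ran from 0.0880 to 0.172. Over all genes 2.21% stood wholly above. The 4 were picked by a large change and a small p on these arrays, so their separation is largely set by that choice.

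Promoters with an ISRE core were read across all measured genes as a description. Of 46 interferon-stimulated genes with a promoter in the table, 24 (52.2%) held the core, against 576 of 14749 measured genes (3.91%). Of those 576 genes, 54 (9.38%) were higher on day 10 at an unadjusted p below 0.05, against 4.94% of genes without the core. Outside the interferon-stimulated list the share was 36 of 552 (6.52%). Other motifs searched gave similar shares outside that list, so this share was not particular to the ISRE core. With a kappaB match 7.85% of genes were higher, against 5.07% without it, and outside the list 6.33%. With TTCNNNGAA (N for any base) 6.66% were higher, against 4.96% without it, and outside the list 6.19%.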
